A study of Homo sapiens with 8 samples.

Results

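Lipogenesis, triglyceride storage and lipid droplet genes were followed in HCCLM3, an established human liver cancer cell line (hepatocellular carcinoma) with high metastatic ability, after silencing of circPTK2, a circular RNA formed from exons of PTK2. The genes were chosen by name, as 35 genes of fatty acid synthesis, fatty acid activation, glycerolipid assembly, lipolysis and the droplet surface, and 33 of them stood among the 11818 genes of the table. LIPE and THRSP were not analysed here. Messenger RNA was measured in 4 siRNA libraries, from cells transiently transfected with an siRNA against circPTK2 (genotype label circPTK2 knock down), and in 4 NC libraries, whose genotype label is WT. The labels do not expand NC or say whether those cells received a control siRNA, and they do not speak of separate cultures. The p-values below thus cover library-to-library spread, which may be technical.

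Cells build fatty acids from cytosolic acetyl-CoA, which ATP-citrate lyase and acetyl-CoA synthetase supply, acetyl-CoA carboxylase turns into malonyl-CoA and fatty acid synthase joins into palmitate. Acyl-CoA synthetases activate the fatty acids, and acyltransferases and lipins place them on glycerol to make triglyceride, which is kept in droplets coated with perilipins and released again by lipases. In the liver the transcription factors SREBP-1c and ChREBP drive the synthetic genes in response to insulin and sugar, and many liver tumours keep the pathway active.

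Each siRNA library held 28077305 to 32532669 recovered reads over the genes in the table, and each NC library 37087203 to 43512175. The siRNA libraries lay close together (Spearman correlations across genes of 0.9899 to 0.9953), whereas the NC libraries formed 2 pairs, replicates 1 and 2 against replicates 3 and 4, with correlations of 0.9195 to 0.9382 between the pairs. Correlations with the siRNA libraries were 0.9245 to 0.9335 for NC replicates 1 and 2. For NC replicates 3 and 4 they were 0.8937 to 0.9064. By rank correlation the NC pairs thus differed from each other about as much as NC replicates 1 and 2 differed from the siRNA libraries. A principal component analysis of the 500 most variable genes gave another order. Its first axis (71.8% of the variance) held the siRNA libraries at -24.7 to -23.6 and the NC libraries at 19.5 to 28.6. The NC pairs lay apart on the second axis (18.9%). The mitochondrial share of the values was 4.39% to 5.59% in the siRNA libraries, 5.32% and 5.01% in NC replicates 1 and 2, and 1.96% and 2.19% in NC replicates 3 and 4, and its part in the results was not tested. For the 33 genes, results are therefore given for all 8 libraries and, beside that, for the siRNA libraries against either NC pair alone. The exceptions are MLXIP, ME1, AGPAT3 and LPIN1, which passed in none of these fits. Among genes outside the 33, fits against either NC pair are given only for those under other observations. Linear PTK2 mRNA averaged 213 ± 6.89 in siRNA and 185 ± 28.8 in NC libraries (SD, n = 4 each), which does not measure the circular RNA. Of 12 hepatocyte and hepatocellular carcinoma markers 9 were in the table, with a summed value of 2700 to 2781 in siRNA and 2957 to 5629 in NC libraries, nearly all of it the keratins KRT8 and KRT18. Albumin (ALB) ran from 26.9 to 38.9 in siRNA and from 7.80 to 10.6 in NC libraries, and apolipoprotein B (APOB) from 0.178 to 0.723 in siRNA and from 2.61 to 15.2 in NC libraries. Of 7 adipocyte markers CIDEC alone was in the table, at 4.62 to 6.04 in siRNA and 3.52 to 13.8 in NC libraries. Of 8 fibroblast markers LUM alone (15.5 to 25.5 in siRNA and 20.3 to 64.05 in NC libraries), of 5 endothelial markers PECAM1 alone (3.25 to 4.93 in siRNA and 7.53 to 19.8 in NC libraries) and of 7 leukocyte markers CD68 and CD163 were in the table. CD68 ran from 76.3 to 140.1 in siRNA and from 52.3 to 90.95 in NC libraries, and CD163 from 2.13 to 2.60 in siRNA and from 0.0807 to 0.217 in NC libraries, without overlap, and the part of CD163 in the results was not tested.

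Values are the authors' normalised read values, and log2 changes are siRNA minus NC on log2(value + 1). A change was called at an adjusted p under 0.05, from limma over all 11812 tested genes with Benjamini-Hochberg adjustment. All 33 lipid genes were tested. Of these, 7 rose and 9 fell in the siRNA libraries, which is 21.2% and 27.3% of them, against 21.7% of all tested genes called higher and 20.8% called lower. The counts are thus near the background. Their median log2 change was -0.14, against 0.012 over all tested genes. The groups did not overlap for 7 genes that were higher and 7 that were lower in siRNA libraries, where 22.4% and 20.9% of all tested genes did not overlap in those directions. Against NC replicates 1 and 2 alone, 13 rose and 9 fell (background 29.7% and 28.1%), and against NC replicates 3 and 4 alone, 9 rose and 15 fell (background 33.5% and 32.4%). A fit with either NC pair alone leaves out the spread between the pairs. Its p-values cover only the spread within that pair and within the siRNA libraries. With edgeR on recovered reads 5 rose and 9 fell (background 20.4% and 22%), since PNPLA2 and MGLL no longer passed. With DESeq2 on recovered reads 7 rose and 10 fell (background 22.7% and 25.5%). There PNPLA2 and MGLL passed, and DGAT1 passed as well. In RNA from bulk cultures, fewer cells of a kind and less RNA per cell cannot be told apart.

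**Figure D1:**
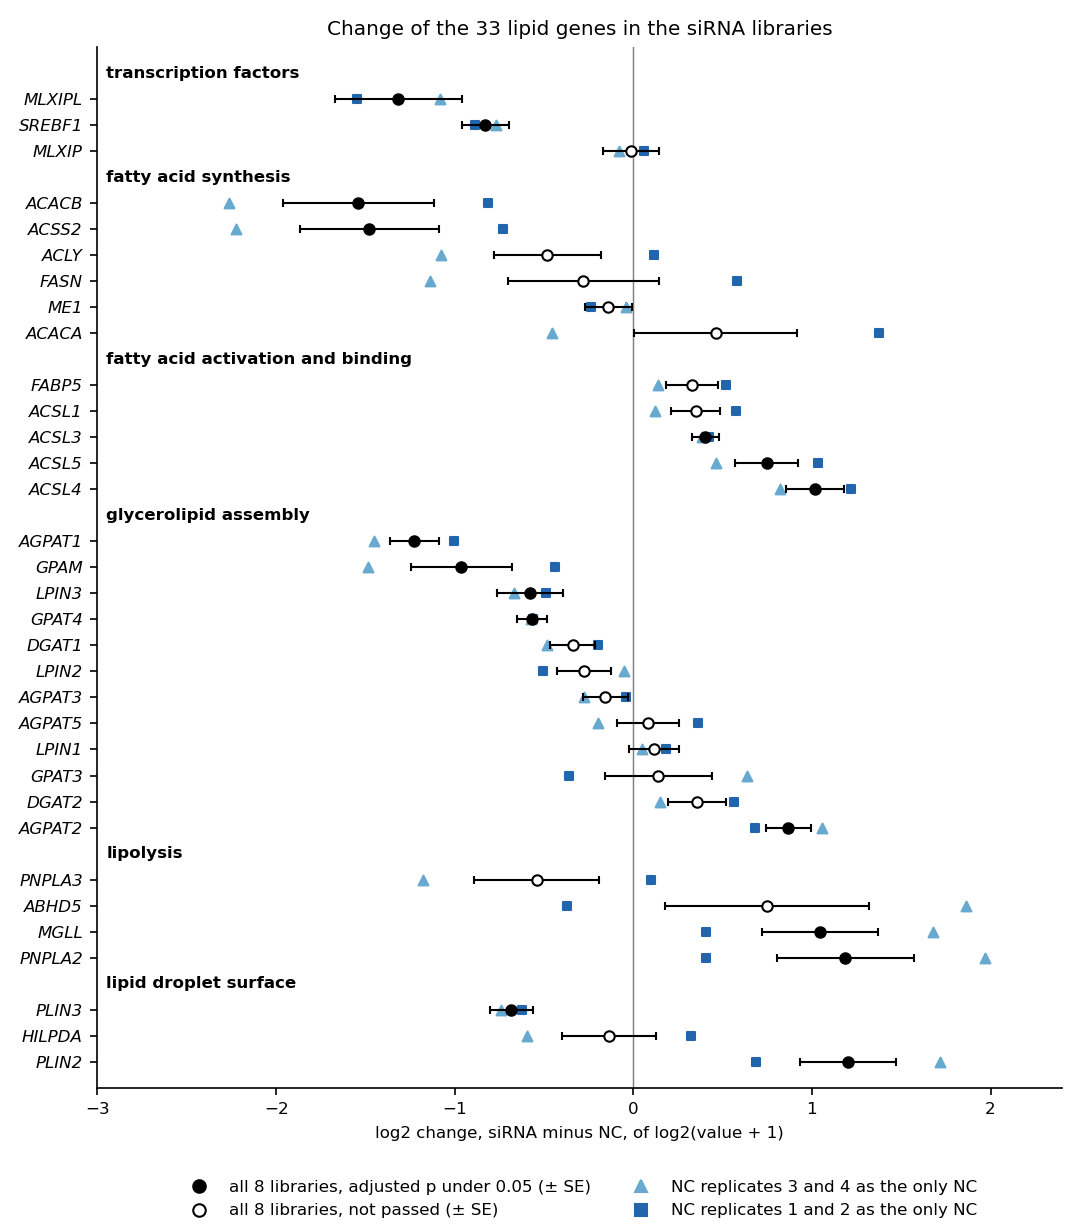
Log2 change, siRNA minus NC on log2(value + 1), of the 33 lipid genes grouped by role. Circles are fits to all 8 libraries with their SE (filled where adjusted p was under 0.05), triangles use NC replicates 3 and 4 as the only NC libraries and squares NC replicates 1 and 2. ACACB (-1.54), ACSS2 (-1.48) and MLXIPL (-1.31) lie farthest left and PLIN2 (1.20) and PNPLA2 (1.19) farthest right, and for FASN and ACACA the triangle and the square lie on opposite sides of 0.

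Of the 3 transcription factor genes in the set, SREBF1 and MLXIPL fell, none rose and MLXIP did not pass. Over all tested genes 20.8% fell and 21.7% rose. Transcription factor genes outside these 3 went both ways, as PPARG rose and USF2 fell (both given further below). SREBF1 (chromosome 17, 17810399 to 17837002, minus strand, GRCh38) encodes SREBP-1, the main activator of fatty acid synthesis genes, and had values of 60.6, 68.2, 71.5 and 82.4 in siRNA replicates 1 to 4, against 133, 129, 103 and 141 in NC replicates 1 to 4. All 4 siRNA libraries lay below all 4 NC libraries. The means were 70.7 ± 9.05 in siRNA and 126 ± 16.5 in NC libraries (SD, n = 4 each), or -0.83 ± 0.13 on the log2 scale (change ± SE) (adjusted p = 0.00132). Both NC pairs gave nearly the same change, -0.77 against NC replicates 3 and 4 alone (adjusted p = 0.00118) and -0.89 against NC replicates 1 and 2 alone (adjusted p = 0.000105). Exons of RAI1 on the other strand cover 6.92% of the SREBF1 exon length, and the use of strand in counting is not given in the sources used here. RAI1 itself averaged 148 ± 7.98 in siRNA and 120.1 ± 14.9 in NC libraries.

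MLXIPL, which encodes the sugar sensor ChREBP, was near the lower end of what the table holds. It stood at 0.784, 0.260, 1.02 and 1.95 in siRNA replicates 1 to 4 and at 7.18, 2.83, 1.95 and 4.55 in NC replicates 1 to 4, and siRNA replicate 4 reached the lowest NC library. On the log2 scale the change was -1.31 ± 0.36 (SE) (adjusted p = 0.0168), and edgeR on recovered reads, which adds less to low values, gave -2.04 (adjusted p = 0.0242). The change was -1.08 against NC replicates 3 and 4 alone (adjusted p = 0.0221) and -1.55 against NC replicates 1 and 2 alone (adjusted p = 0.00765). The fewest recovered reads of MLXIPL in a library were 8, while every other lipid gene had at least 70 in each library. MLXIP, its widely expressed paralogue, averaged 132 ± 3.63 in siRNA and 136 ± 32.3 in NC libraries (adjusted p = 0.961).

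Of the 6 genes of acetyl-CoA supply and fatty acid synthesis, ACSS2 and ACACB fell, none rose and 4 did not pass. Over all tested genes 20.8% fell and 21.7% rose. ACSS2, which makes acetyl-CoA from acetate (chromosome 20, 34872146 to 34927962, plus strand), had values of 8.30, 8.66, 11.3 and 12.3 in siRNA replicates 1 to 4, against 20.1, 14.8, 49.3 and 51.6 in NC replicates 1 to 4. The groups did not overlap, and NC replicates 3 and 4 were the highest libraries. It changed by -1.48 ± 0.39 on the log2 scale (SE) (adjusted p = 0.0148), -2.23 against NC replicates 3 and 4 alone (adjusted p = 7.63e-07) and -0.73 against NC replicates 1 and 2 alone (adjusted p = 0.00703).

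ACACB, the acetyl-CoA carboxylase of the mitochondrial surface whose product restrains fatty acid entry into mitochondria, had values of 2.88, 2.34, 3.70 and 6.51 in siRNA replicates 1 to 4, against 8.44, 6.03, 19.3 and 23.2 in NC replicates 1 to 4. Only siRNA replicate 4 and NC replicate 2 overlapped. For ACACB the log2 change was -1.54 ± 0.43 (SE) (adjusted p = 0.0183), with -2.26 against NC replicates 3 and 4 alone (adjusted p = 0.000112) and -0.82 against NC replicates 1 and 2 alone (adjusted p = 0.0444). It did not pass without siRNA replicate 1 (-1.45, adjusted p = 0.0534) or siRNA replicate 2 (-1.38, adjusted p = 0.0553).

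FASN, the fatty acid synthase gene (chromosome 17, 82078333 to 82098332, minus strand), and ACACA, the cytosolic acetyl-CoA carboxylase gene (chromosome 17, 37084988 to 37406818, minus strand), were further apart between the NC pairs than between the group means. FASN stood at 546, 565, 539 and 585 in siRNA replicates 1 to 4, against 429, 325, 1143 and 1324 in NC replicates 1 to 4. The siRNA values lay between the NC pairs, and the mean of NC replicates 3 and 4 was 3.27 times that of NC replicates 1 and 2. With all 8 libraries the log2 change was -0.28 ± 0.42 (SE) (adjusted p = 0.626). It was -1.14 against NC replicates 3 and 4 alone (adjusted p = 4.61e-07) and 0.58 against NC replicates 1 and 2 alone (adjusted p = 0.000911), so the direction depended on the NC pair used.

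ACACA followed the same layout, with 173, 183, 195 and 193 in siRNA replicates 1 to 4, against 82.6, 61.1, 218 and 298 in NC replicates 1 to 4. Again the siRNA libraries lay between the pairs, and NC replicates 3 and 4 averaged 3.59 times NC replicates 1 and 2. ACACA had a log2 change of 0.46 ± 0.45 (SE) (adjusted p = 0.445), -0.45 against NC replicates 3 and 4 alone (adjusted p = 0.00515) and 1.38 against NC replicates 1 and 2 alone (adjusted p = 7.89e-06). ACLY, ATP-citrate lyase, averaged 254 ± 3.87 in siRNA and 387 ± 178 in NC libraries (adjusted p = 0.225), with an NC mean of 539 in replicates 3 and 4 and of 235 in replicates 1 and 2. It fell against NC replicates 3 and 4 alone (-1.08, adjusted p = 4.23e-07) and did not pass against NC replicates 1 and 2 alone (0.12, adjusted p = 0.23). ME1, the malic enzyme that supplies NADPH, averaged 150 ± 18.1 in siRNA and 165 ± 22.7 in NC libraries (adjusted p = 0.42).

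**Figure D2:**
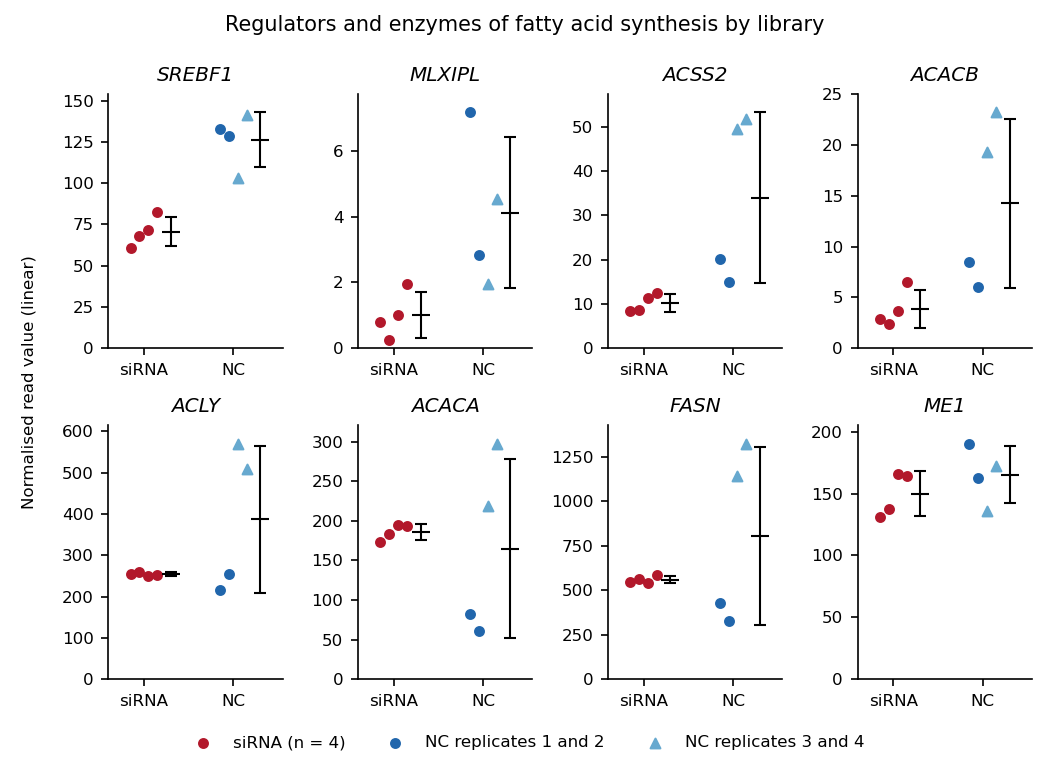
Normalised read values (linear axes from 0) of 2 transcription factor genes and 6 synthesis genes, 1 point per library, with the mean and SD of each group of 4 as bars beside the points. SREBF1 and ACSS2 are lower in all siRNA libraries, whereas for ACLY, ACACA and FASN the triangles of NC replicates 3 and 4 lie above the siRNA libraries and NC replicates 1 and 2 do not.

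Among the 5 genes of fatty acid activation and binding, 3 rose and none fell, where 21.7% of all tested genes rose and 20.8% fell. ACSL4, which prefers arachidonate and other polyunsaturated fatty acids, had values of 260.4, 267, 250.1 and 229 in siRNA replicates 1 to 4, against 93.5, 123, 167 and 120.4 in NC replicates 1 to 4. Every siRNA library was above every NC library. The means, 252 ± 16.8 in siRNA and 126 ± 30.5 in NC libraries, gave a 1.99-fold higher level and a log2 change of 1.02 ± 0.16 (SE) (adjusted p = 0.00134). It was 0.82 against NC replicates 3 and 4 alone and 1.22 against NC replicates 1 and 2 alone, and passed in both.

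ACSL5, a synthetase of the mitochondrial and endoplasmic reticulum membranes, stood at 98.8, 97.1, 88.9 and 84.3 in siRNA replicates 1 to 4, against 41.6, 47.7, 76.3 and 58.2 in NC replicates 1 to 4, without overlap. Its log2 change was 0.75 ± 0.18 (SE) (adjusted p = 0.00922), with 0.46 against NC replicates 3 and 4 alone (adjusted p = 0.00448) and 1.03 against NC replicates 1 and 2 alone (adjusted p = 1.64e-05). ACSL3, the synthetase of the endoplasmic reticulum and of nascent droplets, stood at 275, 272, 264 and 262 in siRNA replicates 1 to 4, against 192, 207, 213 and 197 in NC replicates 1 to 4. It was a smaller but even difference, with a log2 change of 0.40 ± 0.076 (SE) (adjusted p = 0.00302), and 0.38 and 0.42 against NC replicates 3 and 4 alone and against NC replicates 1 and 2 alone. ACSL1, the main hepatic isoform, averaged 126 ± 5.19 in siRNA and 100.2 ± 19.6 in NC libraries (adjusted p = 0.0712) and passed without NC replicate 4 (adjusted p = 0.021). For ACSL1 the log2 change was 0.12 against NC replicates 3 and 4 alone (adjusted p = 0.195) and 0.57 against NC replicates 1 and 2 alone (adjusted p = 0.00033). The fatty acid carrier gene FABP5, which has processed copies elsewhere in the genome that leave its value uncertain, averaged 41.7 ± 4.36 in siRNA and 33.2 ± 5.83 in NC libraries (adjusted p = 0.0962) and also passed without NC replicate 4 (adjusted p = 0.0457). For FABP5 it was 0.14 against NC replicates 3 and 4 alone (adjusted p = 0.288) and 0.52 against NC replicates 1 and 2 alone (adjusted p = 0.00459).

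Glycerolipid assembly held 12 genes, of which AGPAT2 rose, AGPAT1, GPAT4, GPAM and LPIN3 fell and 7 did not pass. The background was 21.7% of all tested genes higher and 20.8% lower. AGPAT1 (chromosome 6, 32168212 to 32178096, minus strand) and AGPAT2 (chromosome 9, 136673143 to 136687423, minus strand) encode enzymes of one step, the acylation of lysophosphatidic acid to phosphatidic acid, and AGPAT2 is the isoform lost in a human lipodystrophy. Their promoter sequences are shown because the 2 paralogues changed in opposite directions. Each runs from 250 bases before to 50 bases after the gene start that RefSeq gives, 5′ to 3′ on the gene's strand (RefSeq, GRCh38.p14), at chr6:32178059-32178358 for AGPAT1 and at chr9:136687408-136687707 for AGPAT2, with CCAAT boxes (CCAAT or its reverse complement) in capitals.
AGPAT1: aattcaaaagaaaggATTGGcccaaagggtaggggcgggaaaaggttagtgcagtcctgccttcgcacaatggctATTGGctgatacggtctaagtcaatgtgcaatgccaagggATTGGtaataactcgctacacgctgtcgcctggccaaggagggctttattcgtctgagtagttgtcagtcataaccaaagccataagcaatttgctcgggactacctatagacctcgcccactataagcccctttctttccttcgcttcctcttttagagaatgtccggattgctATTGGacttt
AGPAT2: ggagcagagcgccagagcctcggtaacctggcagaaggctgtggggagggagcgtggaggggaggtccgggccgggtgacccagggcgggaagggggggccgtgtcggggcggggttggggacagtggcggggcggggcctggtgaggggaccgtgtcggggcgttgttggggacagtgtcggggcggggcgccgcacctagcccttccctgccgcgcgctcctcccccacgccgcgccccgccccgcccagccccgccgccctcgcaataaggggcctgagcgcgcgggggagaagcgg
The AGPAT1 window held 4 CCAAT boxes and 1 GC box (GGGCGG, either strand), and the AGPAT2 window held 0 CCAAT boxes and 7 GC boxes, some of which overlap each other.

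AGPAT1 had values of 25.4, 26.9, 24.5 and 27.04 in siRNA replicates 1 to 4, against 56.1, 49.9, 72.6 and 72.7 in NC replicates 1 to 4. The lowest NC library was well above the highest siRNA library. Its means of 25.9 ± 1.22 in siRNA and 62.8 ± 11.6 in NC libraries gave a log2 change of -1.23 ± 0.14 (SE) (adjusted p = 0.000235). It was -1.45 against NC replicates 3 and 4 alone and -1.002 against NC replicates 1 and 2 alone, and passed in both. Exons of the read-through gene PPT2-EGFL8 on the other strand cover 29.9% of the AGPAT1 exon length, so some reads may not be told apart, and that gene averaged 1.38 ± 0.404 in siRNA and 3.86 ± 0.852 in NC libraries.

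AGPAT2 stood at 174, 159.5, 147 and 156 in siRNA replicates 1 to 4, against 99.3, 98.4, 79.7 and 72.0 in NC replicates 1 to 4, with no overlap. AGPAT2 thus had a log2 change of 0.87 ± 0.12 (SE) (adjusted p = 0.000772), with 1.06 against NC replicates 3 and 4 alone and 0.68 against NC replicates 1 and 2 alone, both past the threshold. The ratio of the AGPAT2 value to the AGPAT1 value was 5.78 to 6.85 in siRNA libraries and 0.9902 to 1.97 in NC libraries. As both genes already separated the groups, in opposite directions, this ratio had to separate them and is no further result. The shares that follow rest on the same values. Per exon length, AGPAT2 made up 78.8% ± 1.42 of the 4 AGPAT genes in siRNA and 58.7% ± 8.13 in NC libraries, and AGPAT1 6.38% ± 0.377 in siRNA and 21.0% ± 4.25 in NC libraries (SD, n = 4 each). AGPAT3 averaged 56.6 ± 6.68 in siRNA and 63.3 ± 8.43 in NC libraries, and AGPAT5 53.9 ± 4.06 in siRNA and 52.03 ± 13.8 in NC libraries, and neither passed (adjusted p = 0.354 and 0.733). AGPAT5 passed against NC replicates 1 and 2 alone (0.36, adjusted p = 0.0117) and not against NC replicates 3 and 4 alone (-0.20, adjusted p = 0.149).

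The first acylation of glycerol phosphate is shared by GPAM at the mitochondrion and by GPAT3 and GPAT4 in the endoplasmic reticulum. GPAT4 stood at 83.5, 80.8, 72.7 and 78.05 in siRNA replicates 1 to 4, against 113, 120.4, 120.7 and 115 in NC replicates 1 to 4. The NC libraries did not split into pairs for GPAT4, and the log2 change of -0.57 ± 0.082 (SE) (adjusted p = 0.000805) was -0.57 and -0.56 against NC replicates 3 and 4 alone and against NC replicates 1 and 2 alone. GPAM had values of 6.45, 7.58, 7.95 and 9.69 in siRNA replicates 1 to 4, against 11.5, 10.5, 23.3 and 24.2 in NC replicates 1 to 4.

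The groups did not overlap for GPAM, although NC replicates 1 and 2 were close to siRNA replicate 4. Its log2 change of -0.96 ± 0.28 (SE) passed with all libraries (adjusted p = 0.0235), but not without siRNA replicate 1, 2 or 3 or without NC replicate 3 or 4 (adjusted p = 0.0502 to 0.0679). For GPAM the change was -1.48 against NC replicates 3 and 4 alone (adjusted p = 1.11e-05) and -0.44 against NC replicates 1 and 2 alone (adjusted p = 0.0422). GPAT3 averaged 146 ± 11.9 in siRNA and 144 ± 65.2 in NC libraries (adjusted p = 0.734), with 0.64 against NC replicates 3 and 4 alone (adjusted p = 0.0246) and -0.36 against NC replicates 1 and 2 alone (adjusted p = 0.0569). Per exon length GPAT3 made up 78.5% to 80.8% of the 3 genes in siRNA and 54.9% to 80.1% in NC libraries.

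**Figure D3:**
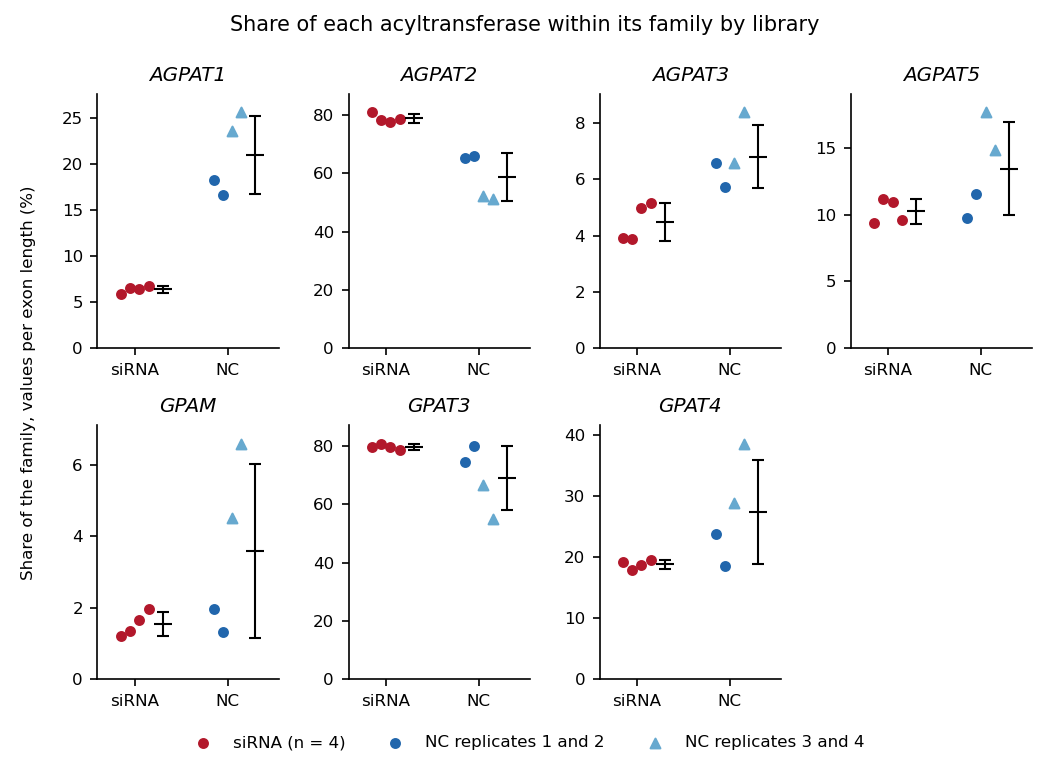
Share of each gene within its acyltransferase family (4 AGPAT genes; GPAM, GPAT3 and GPAT4), in % of the family's values per exon length, with 1 point per library and the mean and SD of each group of 4. AGPAT2 holds 77.6% to 80.9% of its family in siRNA libraries and 51.2% to 66.1% in NC libraries, and AGPAT1 5.85% to 6.72% in siRNA and 16.6% to 25.6% in NC libraries.

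Lipins remove the phosphate from phosphatidic acid to give diacylglycerol. LPIN3 stood at 6.70, 8.95, 11.2 and 11.6 in siRNA replicates 1 to 4, against 15.04, 12.3, 14.04 and 17.3 in NC replicates 1 to 4. The groups were separated by a narrow gap, and exons of EMILIN3, a gene outside the table on the other strand, cover 13.5% of the LPIN3 exon length. LPIN3 had a log2 change of -0.58 ± 0.18 (SE) (adjusted p = 0.0314). It was -0.67 against NC replicates 3 and 4 alone (adjusted p = 0.0135), and it did not pass against NC replicates 1 and 2 alone (-0.49, adjusted p = 0.0639), nor without siRNA replicate 1 or 2 or NC replicate 1, 3 or 4 alone (adjusted p = 0.0514 to 0.0792). LPIN2 averaged 98.6 ± 13.01 in siRNA and 120.4 ± 21.98 in NC libraries (adjusted p = 0.171), with -0.051 against NC replicates 3 and 4 alone (adjusted p = 0.711) and -0.50 against NC replicates 1 and 2 alone (adjusted p = 0.00351). LPIN1 averaged 23.0 ± 2.13 in siRNA and 21.3 ± 3.64 in NC libraries (adjusted p = 0.54).

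The last step, from diacylglycerol to triglyceride, is carried out by DGAT1 and DGAT2, which are unrelated in sequence. DGAT1 averaged 17.4 ± 1.31 in siRNA and 22.4 ± 3.07 in NC libraries (log2 change -0.34, adjusted p = 0.0561) and passed without NC replicate 2 (-0.43, adjusted p = 0.0175) and against NC replicates 3 and 4 alone (-0.48, adjusted p = 0.00339). It did not pass against NC replicates 1 and 2 alone (-0.20, adjusted p = 0.191). With DESeq2 on recovered reads of all 8 libraries DGAT1 passed (-0.37, adjusted p = 0.0174). DGAT2 averaged 10.5 ± 0.932 in siRNA and 8.07 ± 1.82 in NC libraries (log2 change 0.36, adjusted p = 0.107) and passed without NC replicate 4 (0.48, adjusted p = 0.0324) and against NC replicates 1 and 2 alone (0.57, adjusted p = 0.00708). It did not pass against NC replicates 3 and 4 alone (0.15, adjusted p = 0.392). Per exon length, DGAT2 made up 22.1% to 27.5% of the 2 genes in siRNA and 14.9% to 17.5% in NC libraries. The shares thus did not overlap, although neither gene passed in the limma fit to all 8 libraries. How often the shares of other gene pairs separate was not computed. Single genes alone did not overlap for 22.4% (higher) and 20.9% (lower) of all tested genes. Within the lipins the shares of LPIN1, LPIN2 and LPIN3 overlapped, with LPIN2 at 76.2% to 79.3% in siRNA and 73.7% to 81.5% in NC libraries.

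Of the 4 lipolysis genes, PNPLA2 and MGLL rose and none fell, where 21.7% of all tested genes rose and 20.8% fell. PNPLA2, which encodes adipose triglyceride lipase, the enzyme that starts triglyceride breakdown, had values of 166, 154, 146 and 152 in siRNA replicates 1 to 4, against 115, 117, 40.5 and 36.9 in NC replicates 1 to 4. Every siRNA library was above every NC library, and NC replicates 3 and 4 were the lowest. PNPLA2 had a log2 change of 1.19 ± 0.38 (SE) (adjusted p = 0.0335), 1.97 against NC replicates 3 and 4 alone (adjusted p = 2.8e-08) and 0.41 against NC replicates 1 and 2 alone (adjusted p = 0.00141). With the pairs pooled the NC spread was wide, and the call was lost in edgeR (adjusted p = 0.0646) and without any 1 siRNA library or NC replicate 3 or 4 (adjusted p = 0.0654 to 0.081). PNPLA2 passed with DESeq2 on recovered reads (log2 change 0.98, adjusted p = 0.0243).

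MGLL, monoglyceride lipase, which completes lipolysis, stood at 188, 180.1, 187 and 191 in siRNA replicates 1 to 4, against 119.6, 164, 63.4 and 52.1 in NC replicates 1 to 4. As for PNPLA2, the groups did not overlap and NC replicates 3 and 4 were lowest. MGLL had a log2 change of 1.04 ± 0.32 (SE) (adjusted p = 0.0291), 1.68 against NC replicates 3 and 4 alone (adjusted p = 1.04e-07) and 0.41 against NC replicates 1 and 2 alone (adjusted p = 0.0103). The call was lost in edgeR (adjusted p = 0.0538) and without any 1 siRNA library or NC replicate 3 or 4 (adjusted p = 0.0513 to 0.0683). MGLL passed with DESeq2 on recovered reads (log2 change 0.89, adjusted p = 0.0205).

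ABHD5, the coactivator of adipose triglyceride lipase, averaged 62.7 ± 6.57 in siRNA and 50.6 ± 43.4 in NC libraries (adjusted p = 0.325), with NC means of 17.02 in replicates 3 and 4 and 84.2 in replicates 1 and 2. ABHD5 passed when NC replicate 2 was left out (log2 change 1.25, adjusted p = 0.0447) and against NC replicates 3 and 4 alone (1.86, adjusted p = 3.88e-05), and not against NC replicates 1 and 2 alone (-0.37, adjusted p = 0.168). PNPLA3, the droplet hydrolase whose coding variant is tied to fatty liver, was low, at 3.19 ± 0.660 in siRNA and 5.72 ± 3.59 in NC libraries (adjusted p = 0.245). It fell against NC replicates 3 and 4 alone (-1.18, adjusted p = 0.000523) and did not pass against NC replicates 1 and 2 alone (0.097, adjusted p = 0.689).

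At the droplet surface PLIN2 rose, PLIN3 fell and HILPDA did not pass. PLIN2 (chromosome 9, 19108375 to 19149290, minus strand) is the perilipin that coats droplets in liver cells and is degraded when it is not bound to them, and PLIN3 (chromosome 19, 4838341 to 4867768, minus strand) is a perilipin that moves between cytosol and young droplets. Their promoters are printed for the same reason, as paralogues that changed in opposite directions, over the same window around the RefSeq start, again on the minus strand, at chr9:19127443-19127742 for PLIN2 and chr19:4867618-4867917 for PLIN3, with the E-box (CACGTG) and the CCAAT box (either strand) in capitals.
PLIN2: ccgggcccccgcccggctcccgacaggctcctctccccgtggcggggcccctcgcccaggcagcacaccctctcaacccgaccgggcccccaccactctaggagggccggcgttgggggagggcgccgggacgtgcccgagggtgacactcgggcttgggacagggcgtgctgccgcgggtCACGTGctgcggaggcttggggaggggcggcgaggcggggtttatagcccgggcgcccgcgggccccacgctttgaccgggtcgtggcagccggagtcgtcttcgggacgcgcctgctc
PLIN3: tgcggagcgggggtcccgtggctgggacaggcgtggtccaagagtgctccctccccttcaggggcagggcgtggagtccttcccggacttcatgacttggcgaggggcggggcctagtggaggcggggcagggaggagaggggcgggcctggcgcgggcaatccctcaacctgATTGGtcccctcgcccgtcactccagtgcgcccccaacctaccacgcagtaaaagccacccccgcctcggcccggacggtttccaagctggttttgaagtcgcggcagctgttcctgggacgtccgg
RefSeq's PLIN2 start lies inside the longer gene span given above, which comes from GENCODE v29, so the window is not at the outer end of that span. The PLIN2 window held 1 E-box and 0 CCAAT boxes, and the PLIN3 window 1 CCAAT box and 0 E-boxes, each with 2 GC boxes. The promoter table held 23 of the 33 genes. In it a CCAAT box was present for 8 of these 23, against 36.8% of the promoters of genes in the table and 35.7% of all 27305 promoters. The E-box was present for 1 of 23, against 10.3% and 7.43%, and a sterol element (TCACNCCAC, either strand) for 1 of 23, PNPLA2, against 1.04% and 1.15%. The GC box was present for 19 of 23, against 70.7% and 44.6%. These are matches of letters in the windows, and no binding was measured.

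PLIN2 had values of 423, 420.4, 377 and 387 in siRNA replicates 1 to 4, against 212, 292, 127 and 116 in NC replicates 1 to 4. All siRNA libraries were above all NC libraries. The means of 402 ± 23.6 in siRNA and 187 ± 82.1 in NC libraries gave a 2.15-fold higher level and a log2 change of 1.20 ± 0.27 (SE) (adjusted p = 0.00716). The change was 1.72 against NC replicates 3 and 4 alone (adjusted p = 4.23e-08) and 0.69 against NC replicates 1 and 2 alone (adjusted p = 0.00089).

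PLIN3 had values of 117, 116, 100.2 and 101.5 in siRNA replicates 1 to 4, against 141, 198, 188 and 176 in NC replicates 1 to 4. Here every siRNA library was below every NC library and the NC pairs overlapped. PLIN3 had a log2 change of -0.68 ± 0.12 (SE) (adjusted p = 0.00246), with -0.74 against NC replicates 3 and 4 alone and -0.62 against NC replicates 1 and 2 alone, both past the threshold. An antisense gene outside the table covers 17.8% of the PLIN3 exon length. Per exon length, PLIN2 made up 66.7% to 67.8% of PLIN2 and PLIN3 together in siRNA and 26.7% to 45.4% in NC libraries. As both genes already separated the groups, in opposite directions, this share had to separate them too. The perilipin gene PLIN4 was not part of this share. HILPDA, the hypoxia-inducible inhibitor of adipose triglyceride lipase, averaged 8.23 ± 1.18 in siRNA and 9.65 ± 4.02 in NC libraries (adjusted p = 0.706). It fell against NC replicates 3 and 4 alone (-0.60, adjusted p = 0.00766) and did not pass against NC replicates 1 and 2 alone (0.32, adjusted p = 0.13).

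**Figure D4:**
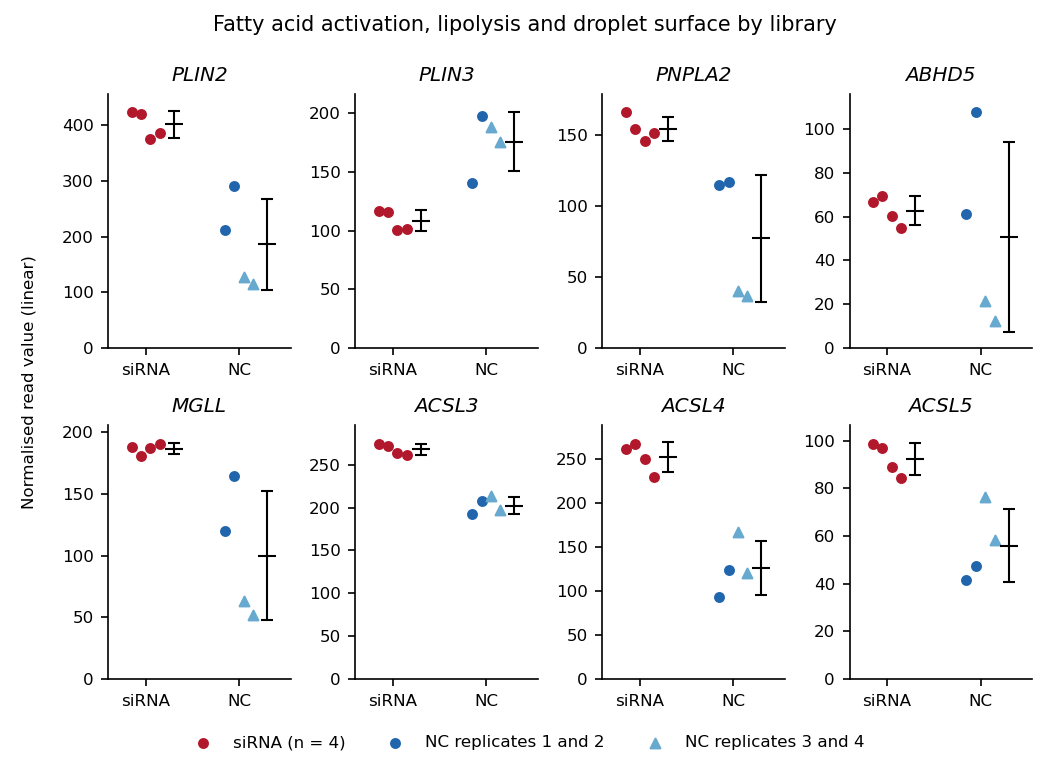
Normalised read values (linear axes from 0) of perilipin, lipolysis and acyl-CoA synthetase genes, 1 point per library, with the mean and SD of each group of 4. PLIN2, PNPLA2, MGLL, ACSL3, ACSL4 and ACSL5 are higher in all siRNA libraries and PLIN3 is lower, whereas ABHD5 spans from 12.5 to 107 in NC libraries around siRNA values of 54.8 to 69.3.

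Within the siRNA group the 33 genes varied little, with a median coefficient of variation of 8.12%, against 24.2% in the NC group, and over all tested genes the medians were 8.63% in siRNA and 21.5% in NC libraries. The siRNA mean lay above both NC pair means for 11 of the 33 genes, below both for 13 and between them for 9, against 35.8%, 35.0% and 29.2% of all tested genes. The 9 were MLXIP, ACLY, ACACA, FASN, GPAT3, AGPAT5, PNPLA3, ABHD5 and HILPDA. The NC means of FASN, ACACA, ACSS2, ACACB and PNPLA3 in replicates 3 and 4 were 2.89 to 3.59 times those in replicates 1 and 2, and those of PNPLA2, MGLL, PLIN2 and ABHD5 were 0.202 to 0.483 times. These 9 genes were picked after their values were seen, and the difference between the NC pairs was not tested.

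The neighbouring lipid genes showed a like mix. A list of 128 genes written from their known roles had 103 in the table, and 26 rose and 25 fell, or 25.2% and 24.3%, against the background of 21.7% and 20.8%. Among 30 genes of acetyl-CoA supply and of the control of synthesis, 6 rose and 8 fell (20% and 26.7%). MBTPS1, the protease that makes the first cut in SREBP activation, averaged 52.7 ± 6.95 in siRNA and 119 ± 11.4 in NC libraries (log2 change -1.16, adjusted p = 0.000151). USF2, a transcription factor that binds E-boxes of lipogenic promoters, averaged 91.5 ± 7.94 in siRNA and 168 ± 9.70 in NC libraries (log2 change -0.87, adjusted p = 0.000179). STK11, the kinase LKB1 upstream of AMPK, averaged 56.4 ± 2.88 in siRNA and 107 ± 5.33 in NC libraries (log2 change -0.90, adjusted p = 9.25e-05).

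Among 17 genes of fatty acid uptake, binding and acyl-CoA handling, 5 rose and 3 fell (29.4% and 17.6%, background 21.7% and 20.8%). ACSS1, the mitochondrial acetyl-CoA synthetase and counterpart of ACSS2, stood at 29.5, 34.2, 46.2 and 45.8 in siRNA replicates 1 to 4, against 8.55, 3.82, 4.90 and 7.70 in NC replicates 1 to 4, a log2 change of 2.49 (adjusted p = 0.000136). It was the reverse of ACSS2, whose values were lower in every siRNA library. ACBD3, an acyl-CoA binding protein of the Golgi, averaged 129 ± 7.16 in siRNA and 75.6 ± 9.27 in NC libraries (log2 change 0.77, adjusted p = 0.000599), and ACSM3, a medium-chain synthetase gene, 8.77 ± 1.09 in siRNA and 2.90 ± 1.07 in NC libraries (log2 change 1.36, adjusted p = 0.0014).

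Of 29 genes of the glycerolipid and phospholipid branch, 8 rose and 6 fell (27.6% and 20.7%, background 21.7% and 20.8%). CDS1, which diverts phosphatidic acid to CDP-diacylglycerol, averaged 5.98 ± 0.735 in siRNA and 1.18 ± 0.453 in NC libraries (log2 change 1.69, adjusted p = 0.000176). MBOAT1, a lysophospholipid acyltransferase, averaged 6.41 ± 1.54 in siRNA and 16.5 ± 4.08 in NC libraries (log2 change -1.23, adjusted p = 0.00191), and the choline kinase gene CHKB 4.79 ± 0.703 in siRNA and 9.10 ± 0.722 in NC libraries (log2 change -0.81, adjusted p = 0.00171). Of 27 genes of the droplet, lipolysis and lipoprotein assembly, 7 rose and 8 fell (25.9% and 29.6%, against the same background). MTTP, the transfer protein that loads triglyceride onto apolipoprotein B, had values of 11.1, 11.8, 9.68 and 12.2 in siRNA replicates 1 to 4, against 50.0, 67.8, 46.8 and 31.2 in NC replicates 1 to 4, a 4.38-fold lower level (log2 change -1.99, adjusted p = 0.000184). The hepatic lipase gene LIPC averaged 25.2 ± 4.77 in siRNA and 6.46 ± 1.13 in NC libraries (log2 change 1.81, adjusted p = 0.000104), and the hydrolase gene ABHD4 57.1 ± 4.36 in siRNA and 107 ± 13.97 in NC libraries (log2 change -0.89, adjusted p = 0.000465).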

How the data were processed

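Poly(A)-selected RNA of HCCLM3 cells was sequenced in 4 siRNA and 4 NC libraries. Per the submitters' processing notes, HISAT2, HTSeq 0.12.4, FastQC, Trimmomatic, edgeR and DESeq2 were used with build hg38; which did what, and the use of strand, is not given in the sources used here. What the authors deposited is a normalised read signal rather than whole counts. Within each column the values are whole multiples of 1 step, and 100% came out as whole reads to within 0.02 reads. The smallest value was read as 2 reads in 4 columns.

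limma 3.58.1 (R 4.3.3, trend and robust) was fitted to log2(value + 1) of the 11812 genes that reached 1 in 4 or more libraries, with group as the only term; 6 genes were not tested. Adding 1 understates the change of low genes. The procedure was tested on simulated reads drawn independently for each library. They held no NC pairs, so that test does not cover the NC split seen here. Alternatives were edgeR 4.0.16 (2407 genes higher and 2595 lower) and DESeq2 1.42.0 on recovered reads, other pseudocounts, filters and scaling, a fit with a replicate block, and fits lacking 1 library or 1 NC pair. No 2 libraries of a group agreed within sampling noise (chi-square per degree of freedom 8.94 or more). Positions, exon lengths and overlaps are from GENCODE v29 (GRCh38). Exon length covers all annotated exons of a gene, not the transcripts expressed here. Values in every library are given for genes called with all libraries or in both fits with 1 NC pair; from each other list, up to 3 called genes with the smallest p are named. LDAF1 was matched by its older symbol. The genes and lists were chosen with earlier results of these data known. Read numbers cover counting error only.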

Additional observations from a re-analysis of the deposited data

How the results depend on the processing

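Among the log2 changes of the 33 genes under all alternatives, 530 kept direction and side of the threshold, 27 no longer passed, 19 newly passed and 16 changed sign. Counts of the 33 genes called ran from 5 to 8 higher and from 6 to 10 lower when 1 library was left out, while over all tested genes the counts ran from 1968 to 2808 higher and from 1885 to 2727 lower. The largest shifts came from leaving out an NC pair. Without NC replicates 3 and 4, 13 were higher (39.4%, against 29.7% of all tested genes). Without NC replicates 1 and 2, 15 were lower (45.5%), as were 42 of the other lipid genes (40.8%). Over all tested genes 3953 were then higher (33.5%) and 3829 lower (32.4%). No sign changed under another tool, pseudocount, filter or scaling for any of the 33 genes; MLXIPL and PNPLA3 have no value with a filter at a mean of 5, which both miss.

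The sign of these log2 changes turned without NC replicates 3 and 4: FASN (0.58), ACLY (0.12), MLXIP (0.058), GPAT3 (-0.36), PNPLA3 (0.097), ABHD5 (-0.37) and HILPDA (0.32). It turned without NC replicates 1 and 2 for ACACA (-0.45) and AGPAT5 (-0.20). With 1 library left out, the ranges crossed 0 for FASN (-0.63 to 0.042), MLXIP (-0.11 to 0.12), GPAT3 (-0.15 to 0.40), AGPAT5 (-0.046 to 0.24) and HILPDA (-0.34 to 0.066). None of these 9 genes passed with all 8 libraries, and the cause was not tested.

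Same-numbered siRNA and NC libraries shared no consistent deviation (correlations of -0.069, 0.15, -0.066 and 0.16 for numbers 1 to 4), so the numbers were not taken as pairs, and siRNA replicate 1 correlated best with NC replicate 2. With a replicate block, 7 of the 33 genes were higher and 9 lower, as without it, and over all genes 2294 were higher and 2252 lower. Depth limits MLXIPL most, with 8 reads in its lowest library.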

Other observations

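Some lipid genes outside the 33 were picked after their values were seen. PPARG, the nuclear receptor of fat storage, stood at 161, 160.4, 132 and 131 in siRNA replicates 1 to 4, against 56.9, 77.1, 57.6 and 42.7 in NC replicates 1 to 4, a log2 change of 1.33 (limma adjusted p = 0.000495). LDAF1, listed under its older symbol TMEM159, encodes a seipin partner in droplet formation and averaged 75.5 ± 4.78 in siRNA and 31.3 ± 10.1 in NC libraries (SD, n = 4 each; limma adjusted p = 0.00127). The perilipin gene PLIN4 averaged 32.6 ± 2.41 in siRNA and 17.7 ± 8.03 in NC libraries (limma adjusted p = 0.025), and SOAT1, which makes cholesteryl esters for droplets, averaged 134 ± 17.4 in siRNA and 76.6 ± 20.7 in NC libraries (limma adjusted p = 0.00843). Against NC replicates 3 and 4 alone the log2 change was 1.53 for PPARG, 1.66 for LDAF1, 1.51 for PLIN4 and 0.51 for SOAT1. Against NC replicates 1 and 2 alone it was, in the same order, 1.12, 0.92, 0.40 and 1.14.

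GPD1L, a relative of the enzyme that makes glycerol phosphate, stood at 113, 123, 140.3 and 149 in siRNA replicates 1 to 4, against 53.4, 51.6, 18.2 and 21.8 in NC replicates 1 to 4 (log2 change 1.98, limma adjusted p = 0.00206). The carboxylesterase gene CES2 averaged 10.9 ± 1.24 in siRNA and 37.9 ± 20.5 in NC libraries, a 3.49-fold lower level (limma adjusted p = 0.00721). The phosphatidylserine synthase gene PTDSS1 averaged 81.2 ± 5.81 in siRNA and 185 ± 90.1 in NC libraries, where replicates 3 and 4 stood at 272 and 253 and replicates 1 and 2 at 111 and 103 (limma adjusted p = 0.0275). Against NC replicates 3 and 4 alone the log2 change was 2.66 for GPD1L, -2.24 for CES2 and -1.68 for PTDSS1. Against NC replicates 1 and 2 alone it was, in the same order, 1.30, -0.87 and -0.40.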
